A study of Mus musculus with 2 samples.

Results

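Many droplets of the 2 libraries held few RNA molecules and a large share of mitochondrial RNA, and these shallow, mitochondria-rich barcodes are described here. A barcode was taken when it carried 700 to 2499 unique molecular identifiers (UMIs, each marking 1 captured molecule) and when more than 10% of them lay in genes of the mitochondrial genome, whose symbols start with mt-. By this rule 4364 of the 10656 barcodes with at least 700 UMIs belonged to the class in the library named control (41.0%, 95% Clopper-Pearson interval 40.0 to 41.9), and 1974 of 6162 in the library named sonKD (32.0%, 30.9 to 33.2). They were set against the deep barcodes of the same library, which had at least 2500 UMIs and at most 10% of them in mt- genes: 4978 barcodes in control and 2731 in sonKD. The barcodes were chosen by their UMI count and their mitochondrial share, so both are given below only as a description. The 2 libraries list 1408944 and 1400093 barcodes in all, with 71046373 and 60352438 UMIs.

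Both libraries came from E14 cells, a mouse embryonic stem cell line of 129/Ola background, grown on gelatin, with no feeder cells named, in medium with serum and leukaemia inhibitory factor. One culture received a control small interfering RNA and the other an siRNA against Son, which encodes a large scaffold protein of nuclear speckles that is needed for efficient splicing. The cells were detached 24 h after transfection, frozen, thawed, stained with 7-AAD, a dye that enters cells whose membrane is broken, sorted as living cells, and barcoded with 10x Genomics 3′ chemistry, which reads the ends of polyadenylated RNA. Each group is 1 library from 1 transfection, so no test between groups was possible and the knockdown cannot be told apart from any other difference between the libraries.

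The compartments of a cell hold different RNAs. Most spliced messenger RNA is cytosolic, whereas unspliced transcripts and some long noncoding RNAs stay in the nucleus: Malat1 lies in nuclear speckles and Neat1 builds paraspeckles. Mitochondrial transcripts are made and kept inside the organelle, and messenger RNAs of secreted and membrane proteins are translated on the endoplasmic reticulum, whose membrane runs into the nuclear envelope. In droplet data, barcodes with few UMIs and a high mitochondrial share are commonly removed as damaged cells before analysis.

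The shallow barcodes had a median of 1488 UMIs in control (quartiles 1174 and 1853) and 1741 in sonKD (1402 and 2079), against 7737.5 and 11612 in the deep barcodes. Their median mitochondrial share was 18.1% and 22.3%, reaching 55.1% and 73.7%, against 3.65% and 4.10% in the deep barcodes. Together they carried 9.38% of all UMIs of the control library and 5.63% of those of sonKD. After mt- genes were left out, 5442528 UMIs remained in the shallow class of control and 2626314 in that of sonKD, and all levels below are CPM, a gene's count relative to such a total. Near-empty droplets of 100 to 499 UMIs served as a measure of free RNA. They held a median of 302 and 294 UMIs outside mt- genes, an amount that equals 24.2% and 22.1% of the same UMIs of a shallow barcode and 3.82% and 2.62% of those of a deep one. Of the cell barcodes, 2 occurred in the shallow class of both libraries.

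Malat1, the marker that gave the class its name, had a 4.02-fold higher level in shallow than in deep barcodes of control and a 3.56-fold higher level in sonKD. The transcript (GRCm38 chromosome 19, 5795690 to 5802672, minus strand) stood at 11024 CPM in the shallow barcodes of control against 2739 CPM in the deep ones, a log2 ratio of 2.01 (95% counting interval 1.99 to 2.02). In sonKD the levels were 8146 and 2288 CPM, a log2 ratio of 1.83 (1.81 to 1.85). All intervals here cover counting error only. Free RNA held 1273 and 1028 CPM of Malat1, less than either class.

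Single barcodes showed the same order for Malat1. Its median share of a barcode's UMIs outside mt- genes was 0.70% in the shallow class of control (quartiles 0.30 and 1.39) and 0.45% in that of sonKD (0.15 and 1.00), against 0.20% and 0.17% in deep barcodes. With every barcode thinned to 300 UMIs outside mt- genes, Malat1 was found in 77.2% of shallow barcodes of control (75.9 to 78.5), 48.0% of deep ones and 31.9% of free RNA droplets. In sonKD the thinned shares were 66.8% (64.7 to 68.9), 43.6% and 26.9%. Before thinning the shares in shallow, deep and free RNA droplets were 92.9%, 98.8% and 31.4% in control and 85.2%, 99.1% and 25.6% in sonKD. Thinning left out 0 and 1 shallow barcodes and 28491 and 34484 free RNA droplets, which held fewer than 300 such UMIs. At this common depth a shallow barcode showed a median of 263 genes in control and 262 in sonKD, a deep one 250 and 246, and a free RNA droplet 219 and 212.

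Malat1 did not separate the shallow high-mt barcodes from the classes next to them. Deep barcodes above the 10% mitochondrial line (626 in control, 1058 in sonKD) held more, 15469 and 10902 CPM. Shallow barcodes at or below that line (688 and 399) held 8506 and 9498 CPM, which is under the shallow high-mt level in control and over it in sonKD. Just inside and just outside the borders of the class, Malat1 stood at 4372 CPM at 700 to 799 UMIs and 3119 CPM at 600 to 699 in control (2701 and 1259 in sonKD), 15292 CPM at 2400 to 2499 UMIs and 16120 CPM at 2500 to 2599 (9314 and 12193), and 12119 CPM at a mitochondrial share of 10% to 11% against 8823 CPM at 9% to 10% (9207 and 7326).

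**Figure D1:**
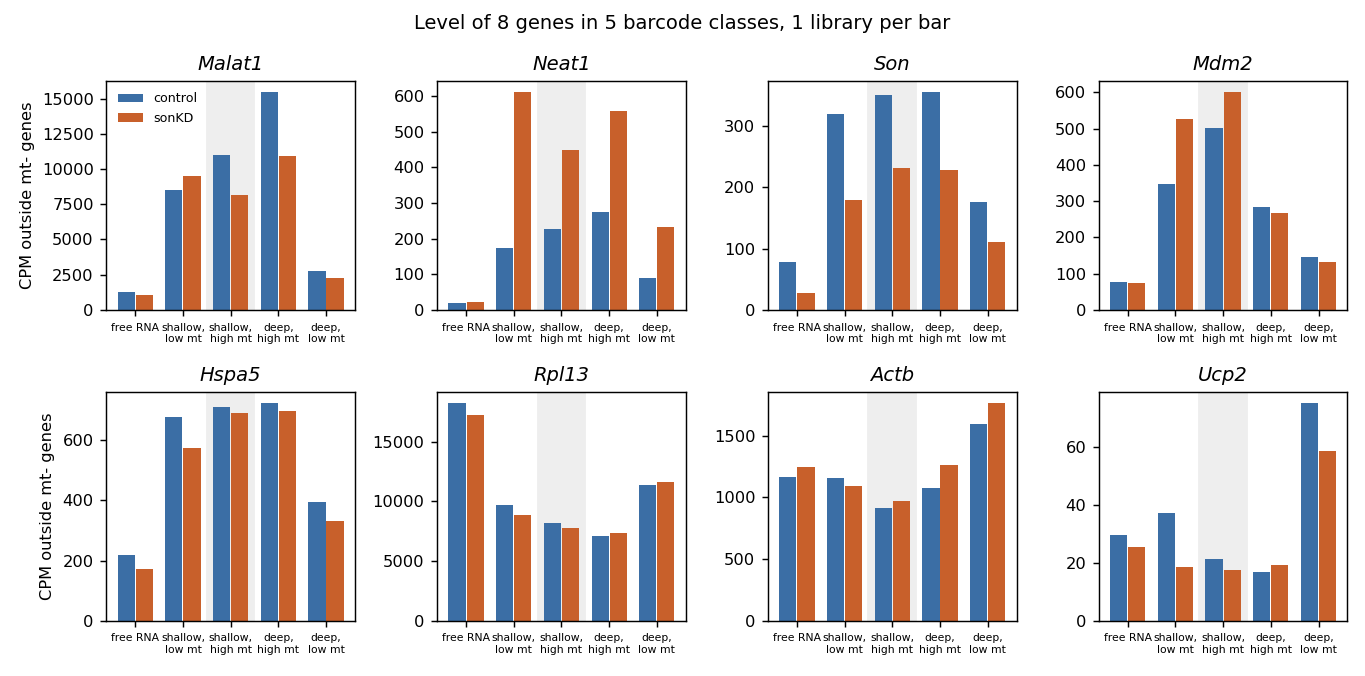
Level of 8 genes in CPM outside mt- genes (vertical axis, from 0) in 5 barcode classes, with 1 bar per library and the shallow high-mt class shaded. Malat1 stood at 11024 and 8146 CPM in the shaded class against 2739 and 2288 CPM in deep low-mt barcodes, whereas Rpl13, Actb and Ucp2 were lower there than in deep low-mt barcodes.

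Counted as UMIs per barcode, nearly every RNA outside the mitochondria was scarcer in a shallow barcode, and the amount that remained differed between gene groups. A shallow barcode held a mean of 279 mitochondrial UMIs in control against 314 in a deep one, which is 88.9%, and 391 against 492 in sonKD, which is 79.4%. Outside mt- genes it held 1247 against 7902 UMIs (15.8%) and 1330 against 11237 (11.8%). Malat1 stood at a mean of 13.7 against 21.6 UMIs per barcode (63.5%) and 10.8 against 25.7 (42.2%), and Neat1 at 39.6% and 22.7% of its deep level. The nuclear long noncoding RNAs as a list stood at 57.3% and 39.5%, and the host genes of small nucleolar RNAs at 32.3% and 25.4%. Malat1 and Gm42418 gave most UMIs of the noncoding list, so its percentage is mainly that of these genes. The list held a mean of 21.3 and 18.6 UMIs per shallow barcode. Gm42418 held 4757 and 4525 UMIs per 1000 shallow barcodes. Transcripts of the endoplasmic reticulum list stood at 22.8% and 17.2%, and genes longer than 200 kb at 22.3% and 16.4%. At the other end, messenger RNAs of cytosolic ribosomal proteins stood at 11.0% and 8.19%, and those of the cytoskeleton at 9.83% and 7.22%. Pou5f1, which encodes the pluripotency factor Oct4, was at 12.0% and 8.43% of its deep amount per barcode. Only 30 of 8758 genes (0.343%) had at least as many UMIs per shallow as per deep barcode in both libraries, among them Il12rb2, Gm20594 and Fosl1. Most of these genes had under 10 CPM in deep barcodes. They passed the 10 CPM minimum only through the shallow class, where they had to be high.

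In relative terms, 888 of 8758 genes were at least 2-fold higher in shallow than in deep barcodes of both libraries (10.1%), and 39 at least 2-fold lower (0.445%). The 8758 genes had a mean of at least 10 CPM over the 4 sums of counts. In control 959 genes passed 2-fold upward (10.9%) and 62 downward (0.708%), and in sonKD 1379 (15.7%) and 86 (0.982%). The median log2 ratio of all genes was 0.31 in both libraries. The split depends on that scaling: 93.9% and 94.1% of the genes past 2-fold were on the higher side by CPM, against 29.5% and 31.4% with TMM factors, which move the median of all genes by -0.51 and -0.58. List medians below are therefore read against 0.31. Of the 888 genes, 302 had under 10 CPM in deep barcodes and entered only through the shallow class, where they had to be high, and 586 did not depend on it in this way.

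The libraries share no barcode sums in this comparison, and they gave like ratios. Across the 8758 genes the ratios of control and sonKD had a Pearson r of 0.93 and a Spearman rho of 0.92, with genes not being independent replicates. The 888 shared genes were 92.6% of the higher genes of control and 64.4% of those of sonKD, and the 39 were 62.9% and 45.3% of the lower ones. The sign was the same for 7924 genes (90.5%), and 0 genes were 2-fold higher in one library and 2-fold lower in the other.

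Nuclear long noncoding RNAs stood highest among the lists. All 18 measured members were above 0 in both libraries, with a median log2 ratio of 0.99 in control and 1.11 in sonKD. Of these members, 9 and 11 were past 2-fold (50.0% and 61.1%, against 10.9% and 15.7% of all genes). Neat1 had 227.8 against 90.7 CPM in control (log2 1.33, 1.23 to 1.42) and 447.0 against 233.4 CPM in sonKD (0.94, 0.85 to 1.03). Pvt1, a long transcript beside Myc, had log2 ratios of 1.15 and 1.42. Meg3, an imprinted noncoding RNA, had smaller ones, 0.71 and 0.52. Gm42418 had 3814 against 809 CPM and 3401 against 659.8 CPM, log2 ratios of 2.24 and 2.37, but also 8754 and 7462 CPM in free RNA, more than in either class. The list as a whole made up 1.71% of UMIs outside mt- genes in the shallow class of control against 0.47% in the deep one, and 1.40% against 0.42% in sonKD. Much of this sum was Malat1 alone, at 1.10% against 0.27% in control and 0.81% against 0.23% in sonKD.

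Host genes of small nucleolar RNAs, whose introns encode the guide RNAs of ribosomal RNA modification, had medians of 0.96 and 0.93. Of 14 members, 7 and 6 were past 2-fold upward (50.0% and 42.9%, against 10.9% and 15.7% of all genes). Snhg12 had 235.0 against 65.8 CPM in control and 377.0 against 66.6 CPM in sonKD, log2 ratios of 1.84 (1.74 to 1.93) and 2.50 (2.39 to 2.61). Snhg3 stood at 1.64 in both libraries, although genes on both strands overlap it. Gas5, a growth-arrest noncoding RNA of the same list, was near the median of all genes at 0.48 and 0.29.

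Genes of the nuclear speckle and splicing list, by contrast, had the ratio of an ordinary gene, with medians of 0.31 and 0.36 and 3 and 6 of 32 members past 2-fold (9.38% and 18.8%, against 10.9% and 15.7% of all genes). Tra2a, a splicing regulator, stood at 1.20 and 1.55 and Clk4, a kinase of splicing factors, at 1.01 and 1.40. Srrm2, a speckle scaffold, stood at 0.32 and 0.37. Son itself (chromosome 16, 91647506 to 91679221, plus strand) had 350.4 against 175.2 CPM in control and 231.5 against 110.3 CPM in sonKD, log2 ratios of 1.00 and 1.07. Son overlaps Donson on the other strand, and Clk4 and Srrm2 overlap other genes in the same way.

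Messenger RNAs of the endoplasmic reticulum and of secreted and membrane proteins had medians of 0.64 and 0.60 over 50 members. Of these, 3 and 7 were past 2-fold (6.0% and 14.0%), a smaller share than the 10.9% and 15.7% of all genes. Hspa5, the chaperone BiP, had 712.4 against 394.4 CPM in control and 690.3 against 331.8 CPM in sonKD, log2 ratios of 0.85 and 1.06. Pdia3, a disulfide isomerase whose gene overlaps Catsper2 on the other strand, stood at 0.94 and 1.12, and Hsp90b1, the chaperone of the same lumen, only at 0.33 and 0.43. Lamp2, a lysosomal membrane protein, had the highest ratio of the list, 1.67 (1.57 to 1.77) and 1.89 (1.77 to 2.02).

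The p53 target and apoptosis list was divided. Its medians were 0.55 and 0.54. Of 23 members, 9 and 10 were past 2-fold upward (39.1% and 43.5%, against 10.9% and 15.7% of all genes) and none downward. Mdm2, the ubiquitin ligase that limits p53, had 500.7 against 146.2 CPM in control (log2 1.78, 1.71 to 1.84) and 601.2 against 133.3 CPM in sonKD (2.17, 2.09 to 2.26). Apaf1, the scaffold of the apoptosome, stood at 2.00 and 2.42 and Btg2, an antiproliferative factor, at 1.75 and 2.40. The remaining 6 genes past 2-fold in both libraries, named here after their values were seen, were Polk (1.94 and 2.10), Trp53inp1 (1.78 and 2.10), Ddit4l (1.55 and 2.27), Eda2r (1.48 and 1.72), Zmat3 (1.36 and 1.73) and Ccng1 (1.08 and 1.48). Other targets did not follow: Bax, a pore-forming killer of the mitochondrial outer membrane, stood at -0.51 and -0.72, Rps27l at -0.38 and -0.29, and Cdkn1a, the cell cycle inhibitor p21, at -0.07 and 0.27. With TMM factors the median in sonKD was -0.04, still above that of all genes.

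Messenger RNAs of cytosolic ribosomal proteins were the group of highest share on the lower side. Their medians were -0.51 and -0.54, and 71 of 78 members were below 0 in each library. Past 2-fold downward were 0 and 3 (0% and 3.85%, against 0.708% and 0.982% of all genes). They made up 14.2% of UMIs outside mt- genes in shallow barcodes of control against 20.4% in deep ones, and 16.6% against 24.0% in sonKD, whereas free RNA held 32.0% and 36.8%. Rpl13 had 8170 against 11387 CPM and 7762 against 11588 CPM, log2 ratios of -0.48 and -0.58, with 45.4% of its 3′ end shared with other transcripts. Rps20 stood at -0.91 and -0.97. Rpl10, at 1.49 and 2.01, was the exception, but 70.8% of its 3′ end is shared with other annotated transcripts and its level was low, 39.9 and 43.8 CPM in shallow barcodes, so its value is uncertain. Translation factors followed the ribosomal genes with medians of -0.36 and -0.39 over 35 members, among them Eef2, the translocation factor of the ribosome, at -0.85 and -0.91.

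Structural and metabolic messenger RNAs of the cytosol were also low. The cytoskeleton list had medians of -0.46 and -0.47. Of 24 members, 5 were past 2-fold downward in each library (20.8%, against 0.708% and 0.982% of all genes). Actg1, a cytoplasmic actin, had 873.9 against 1801 CPM in control and 731.8 against 1623 CPM in sonKD, log2 ratios of -1.04 and -1.15. Pfn1, the actin-binding protein profilin, stood at -1.26 and -1.34. Glycolysis enzymes had medians of -0.48 and -0.45 over 16 members, with Ldha, lactate dehydrogenase, at -0.86 and -0.92 and Pkm, pyruvate kinase, at -0.65 and -0.57. Histone genes had the lowest medians of all lists, -0.54 and -0.62. Of 22 members, 4 were past 2-fold downward in each library (18.2%, against 0.708% and 0.982% of all genes). Upward there were 0 and 2 (0% and 9.09%, against 10.9% and 15.7% of all genes). Among the 22, 3 had under 10 CPM in deep barcodes and entered only through the shallow class. Hist1h1b, a linker histone, had 285.5 against 871.1 CPM and 389.1 against 1118 CPM, log2 ratios of -1.61 and -1.52.

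Genes of mitochondrial function encoded in the nucleus had list medians below that of all genes. The respiratory chain list had medians of -0.11 and -0.04. Of 79 members, 1 and 3 were past 2-fold upward (1.27% and 3.80%, against 10.9% and 15.7% of all genes). Downward there were 1 and 0 (1.27% and 0%, against 0.708% and 0.982% of all genes). Its members spread in both directions: Cox4i1 and Cox6a1, subunits of cytochrome c oxidase, stood at 0.86 and 1.08 and at 1.27 and 1.57, and Sdhc, a subunit of succinate dehydrogenase, at -1.22 and -0.90. Cox4i1 overlaps a gene on the other strand. As a sum, the respiratory chain list made up slightly more of the UMIs outside mt- genes in shallow than in deep barcodes. The shares were 2.94% against 2.79% in control and 3.63% against 3.21% in sonKD. Mitochondrial ribosomal protein genes had medians of -0.25 and -0.26 over 78 members, of which 0 were past 2-fold, with Mrpl30 at -0.92 and -0.84.

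Within the mitochondrial RNA itself the makeup was close to that of deep barcodes. Mt-Co3 took 23.1% and 23.3% of mitochondrial UMIs in the shallow class, mt-Atp6 19.6% and 16.7%, mt-Co2 16.6% and 19.1% and mt-Co1 13.1% and 14.5%. The log2 ratio of these shares, shallow over deep, was 0.14 and 0.17 for mt-Atp6, -0.18 and -0.03 for mt-Co1, and -0.18 and -0.31 for mt-Nd1. Mt-Nd6, the gene of the other mitochondrial strand, stood at 0.27 and 0.05.

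Lists of cell state were nearer to 0 and below the median of all genes. Naive pluripotency genes had medians of -0.18 and -0.04 over 19 members, of which 8 were above 0 and 11 below in each library. Zfp42, above 0 but under the median of all genes, had 803.9 against 669.8 CPM in control and 753.1 against 647.9 CPM in sonKD. Esrrb had 206.7 against 139.4 CPM and 178.6 against 129.3 CPM. Pou5f1 stood at 876.2 against 1148 CPM in control and 681.2 against 956.3 CPM in sonKD, Sox2 at log2 ratios of -0.20 and -0.14 and Nanog at -0.27 and -0.42. S phase genes had medians of -0.26 and -0.27, and G2/M genes of -0.17 and -0.36, where Ube2c and Plk1, which drive mitosis, stood at -1.10 and -1.14 and at -0.83 and -1.32. The integrated stress response list had medians of -0.31 and -0.21 over 11 members, with Psat1, an enzyme of serine synthesis, at -1.14 and -1.52 and Atf4, its transcription factor, at -0.46 and -0.21. Immediate early and heat shock genes had medians of 0.02 and -0.04. Atf3, a stress-induced transcription factor, was the exception among these 16, with 18.7 against 5.29 CPM in control and 31.6 against 5.34 CPM in sonKD. Its log2 ratios were 1.83 (1.47 to 2.17) and 2.56 (2.17 to 2.95). With under 10 CPM in deep barcodes, Atf3 passed the minimum only through the shallow class, where it had to be high.

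**Figure D2:**
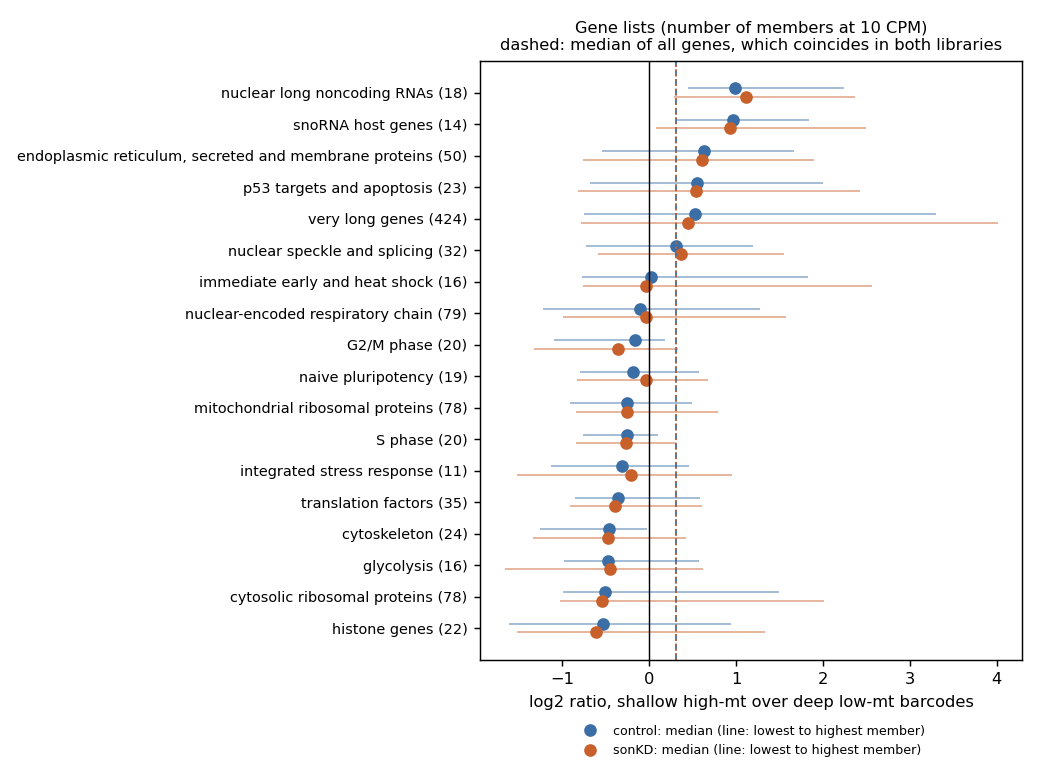
Log2 ratio of shallow high-mt over deep low-mt barcodes (horizontal axis) for 18 gene lists, with the number of members at 10 CPM or more in brackets. Points are list medians and lines run from the lowest to the highest member in control and sonKD, and the dashed line is the median of all genes at 0.31. Nuclear long noncoding RNAs lie at 0.99 and 1.11 and histone genes at -0.54 and -0.62.

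Markers of pluripotent stem cells had lower summed levels in the shallow class than in deep barcodes or free RNA, and those of other cell types were scarce. The 10 pluripotent markers summed to 7442 CPM in control and 7890 in sonKD, against 9042 and 9849 CPM in deep barcodes and 12142 and 12820 CPM in free RNA, so that UMIs of these genes in a shallow barcode can include free RNA. Dppa5a alone gave 22461 of their 40504 UMIs in the shallow class of control and 12931 of 20721 in sonKD. Zfp42 and Esrrb were higher in shallow than in deep barcodes of both libraries, and Sall4 slightly so in sonKD, whereas the others were lower. The log2 ratios of Zfp42, 0.26 and 0.22, lay under the median of all genes and were -0.24 and -0.36 with TMM factors. Fibroblast markers had UMIs for 5 of 10 genes in each library and 8.82 and 8.76 CPM in all (6.81 and 7.20 in deep barcodes), with Col1a2, Col3a1, Dcn, Lum and Postn at 0. Primitive endoderm markers summed to 14.0 and 15.6 CPM (7.85 and 5.73 in deep barcodes), with 6 and 7 of 8 genes detected and Foxa2 at 0 in both. Trophectoderm markers summed to 13.8 and 16.8 CPM (10.9 and 13.6), with 4 and 5 of 8 genes detected and Cdx2, Elf5 and Hand1 at 0. Neuroectoderm markers summed to 66.5 and 54.1 CPM (64.3 and 60.1), with 5 of 7 genes detected and Dcx and Neurog2 at 0. Mesoderm markers summed to 1.84 and 2.67 CPM (1.68 and 1.43 in deep barcodes) with 3 and 5 of 7 genes detected, and blood markers to 1.10 and 1.52 CPM (0.38 and 0.23), which is 6 and 4 UMIs, with 1 of 6 genes detected and the globin genes and Ptprc at 0. The part of other cell types in the ratios was not tested beyond these levels.

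The highest single ratios belonged to genes of low level in deep barcodes, most of which overlap another gene. Il12rb2, a subunit of the interleukin-12 receptor, had 59.2 against 2.80 CPM in control and 68.2 against 1.73 CPM in sonKD, log2 ratios of 4.40 and 5.30. It overlaps Serbp1 on the opposite strand. Gm20594, which overlaps no annotated gene, followed at 4.02 and 4.34. Fosl1, a subunit of the AP-1 transcription factor, stood at 3.44 and 4.45, Nlrc5, a regulator of MHC class I genes, at 3.40 and 4.90, and Plcl2, a phospholipase C-like protein, at 3.37 and 3.56. Of the 15 genes with the highest ratios, 14 had under 10 CPM in deep barcodes. Such genes entered only through the shallow class, where they had to be high, so the minimum set their direction. Of the 15, 14 are annotated, and 11 of these overlap a gene on the other strand (78.6%), against 36.9% of all genes and 44.2% of the 888. Whether counting used the strand is not given in the sources used here, so reads of such a gene and of its partner cannot be told apart: Fosl1 overlaps Ccdc85b, Tmc8 (3.22 and 4.36) overlaps Tmc6, Tsnaxip1 overlaps Cenpt and Gm12353 overlaps Wwp1. AY036118, at 3.30 and 3.19, overlaps Gm42418 and, like it, was abundant in free RNA, at 2677 CPM in control. Plcl2 and E330020D12Rik (3.24 and 3.70) overlap no gene.

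The lowest ratios belonged to short protein-coding genes of higher level. Ucp2, a carrier of the mitochondrial inner membrane, had 21.3 against 75.2 CPM in control and 17.5 against 58.4 CPM in sonKD, log2 ratios of -1.82 and -1.74. Slc25a39, a mitochondrial glutathione carrier, stood at -1.62 and -1.80, Grsf1, which binds RNA inside mitochondria, at -1.59 and -1.71, and Bnip3, a mitophagy receptor, at -1.20 and -1.78. Ucp2 and Bnip3 overlap a gene on the other strand. Marcksl1, an actin-binding protein, stood at -1.46 and -1.27, and Fscn1, the actin bundler fascin, at -1.24 and -1.26. Hdgf, a growth factor, stood at -1.17 and -1.34 and Gnb2, a G protein subunit, at -1.15 and -1.16. All 39 genes past 2-fold downward in both libraries are protein coding, with a median genomic span of 6.14 kb, against 27.01 kb for all genes and 32.5 kb for the 888 higher ones.

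The annotated types of gene are given over genes with at least 10 CPM in deep barcodes, a minimum chosen after seeing the data, since many noncoding genes entered only through the shallow class. Of these, 16 of 41 antisense genes were past 2-fold upward in both libraries (39.0%), 20 of 54 processed transcripts (37.0%), 22 of 82 long intergenic RNAs (26.8%) and 524 of 7923 protein-coding genes (6.61%). Most antisense genes overlap a gene on the other strand, and of the 3 that do not, 0 were past 2-fold. Without such an overlap the numbers were 15 of 65 long intergenic RNAs (23.1%), 7 of 27 processed transcripts (25.9%) and 332 of 5062 protein-coding genes (6.56%).

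The ratio also went with the length of the gene. Over genes grouped into deciles of genomic span, the median log2 ratio was -0.15 in the shortest decile of both libraries and 0.54 in the 9th decile of both, with 0.51 and 0.44 in the longest. Across genes, which are not independent, span and ratio had a Spearman rho of 0.38 in control and 0.31 in sonKD. Within deciles of expression level it averaged 0.36 and 0.29 and was above 0 in all 10. Transcript length gave 0.35 and 0.31, the number of exons 0.20 and 0.18, and GC content -0.15 and -0.11. Genes over 200 kb had medians of 0.53 and 0.44. Past 2-fold upward were 41 and 59 of 424 (9.67% and 13.9%), a smaller share than the 10.9% and 15.7% of all genes. Among the 424, 32 had under 10 CPM in deep barcodes and entered only through the shallow class, where they had to be high. Exoc4, a subunit of the exocyst, had 536.5 against 319.7 CPM in control, a log2 ratio of 0.75 in both libraries. Macf1, a giant linker of microtubules and actin, stood at 0.74 and 0.62. Pde4d, a cyclic AMP phosphodiesterase, was opposite at -0.44 and -0.49. With TMM factors the median of these very long genes in sonKD was -0.13, still above that of all genes.

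**Figure D3:**
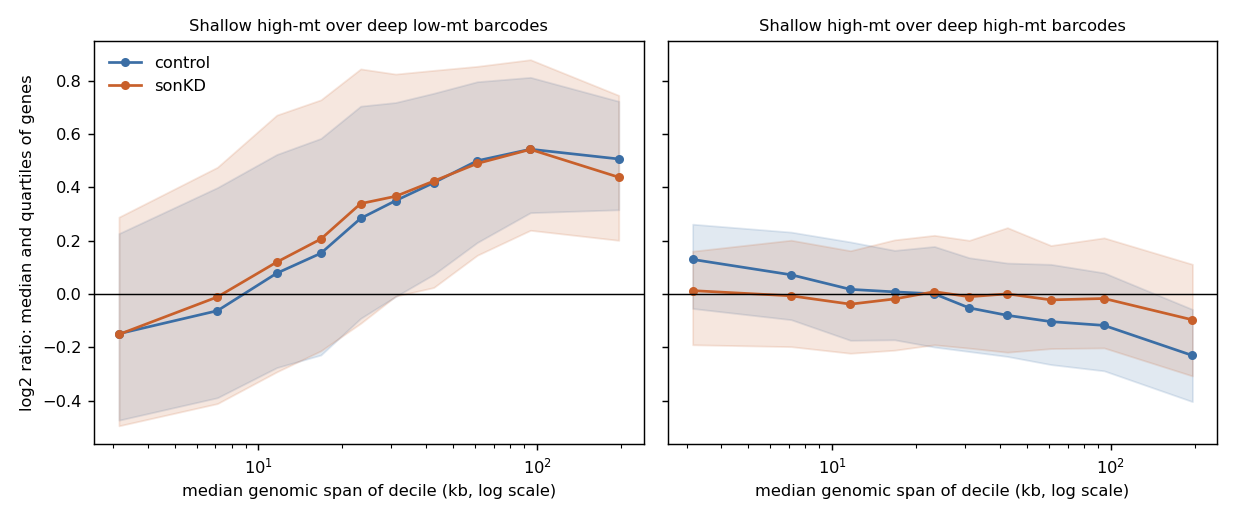
Median (points) and quartiles (bands) of the log2 ratio over deciles of genomic span (horizontal axis, kb, log scale), for shallow high-mt over deep low-mt barcodes on the left and over deep high-mt barcodes on the right. On the left the median climbs from -0.15 to 0.54 at the 9th decile in both libraries, and on the right it does not climb.

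Among the shallow barcodes, the profile differed with depth and with mitochondrial share. From the bin of fewest UMIs to that of most, Malat1 stood at 5196, 8152, 12080 and 14557 CPM in control (569, 1643, 1405 and 747 barcodes) and at 2429, 4961, 8550 and 9578 CPM in sonKD (125, 500, 745 and 604 barcodes). The share of ribosomal protein transcripts went the other way, 18.7%, 15.4%, 13.5% and 12.6% in control and 25.4%, 19.1%, 16.3% and 15.2% in sonKD. Free RNA, whose profile is poor in Malat1 and rich in ribosomal transcripts, equals 44.2% of the UMIs outside mt- genes in the bin of fewest UMIs of control and 16.2% in that of most (48.8% and 16.6% in sonKD). The median free RNA was also taken off, an alternative chosen after seeing the data. Malat1 then went from 8282 to 17128 CPM in control and from 3685 to 11278 CPM in sonKD across these bins. The ribosomal share no longer fell in control, at 8.17%, 8.31%, 8.49% and 8.80%. In sonKD it was 14.2%, 11.1%, 10.6% and 10.9%. By mitochondrial share of 10% to 20%, 20% to 30% and 30% to 50%, Malat1 stood at 11724, 9760 and 4693 CPM in control (2808, 1373 and 182 barcodes) and at 8887, 8343 and 5203 CPM in sonKD (741, 851 and 369 barcodes). With free RNA taken off, the levels were 14687, 13082 and 7112 CPM in control and 10743, 10415 and 7087 CPM in sonKD. Above 50% there were 1 barcode in control, with 9042 CPM (interval 2936 to 21100), and 13 in sonKD, with 1112 CPM (447.2 to 2291.5). The bins differed in depth too, with median UMI counts of 1605, 1343 and 1011.5 in control and 1886, 1767 and 1433 in sonKD, and the parts of depth and of mitochondrial share were not told apart.

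Taking off free RNA widened the contrast with deep barcodes. Malat1 then stood at 14139 against 2797 CPM in control and 10164 against 2322 CPM in sonKD. Ribosomal protein transcripts made up 8.51% against 19.96% of UMIs in control and 10.9% against 23.7% in sonKD.

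Against deep barcodes above the same mitochondrial line, 70 genes of 8758 were at least 2-fold higher in control (0.799%) and 145 in sonKD (1.66%), and 10 (0.114%) and 16 (0.183%) were lower, with medians of -0.03 and -0.02. The p53 list stood at 0.34 and 0.46, with 2 and 5 of 23 members past 2-fold. Mdm2 had 283.3 and 266.1 CPM in the deep high-mt barcodes against 500.7 and 601.2 CPM in the shallow ones. It was past 2-fold in sonKD only. Apaf1 had log2 ratios of 1.02 and 1.46. Il12rb2 stood at 1.99 and 2.12 and Fosl1 at 1.66 and 2.13 in this comparison. Malat1 was on the other side, at -0.49 and -0.42, and G2/M genes had medians of -0.32 and -0.44. The relation to span was reversed or near 0, with a rho of -0.29 in control and -0.04 in sonKD. Against shallow low-mt barcodes, 199 genes were at least 2-fold higher in control (2.27%) and 246 in sonKD (2.81%), and 5 (0.0571%) and 43 (0.491%) were lower. That class holds fewer UMIs, and the median interval was 1.02 and 1.37 wide on the log2 scale, against 0.76 and 0.75 for deep high-mt barcodes. These numbers of genes therefore do not rank the classes by likeness. The p53 list had medians of 0.21 and 0.19 against shallow low-mt barcodes, with all genes at 0.11 and 0.04. Past 2-fold upward were 2 of its 23 members in each library, and downward 0 and 1. Against free RNA, 57.7% and 61.2% of genes were at least 2-fold higher and 2.71% and 2.32% lower, very long genes had medians of 3.24 and 3.54, and ribosomal protein genes had medians of -1.18 and -1.15.

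Son, the target of the siRNA, was lower in the shallow barcodes of sonKD than in those of control, at 231.5 against 350.4 CPM, which is 66.1% of control (log2 ratio -0.60, interval -0.73 to -0.47). In deep barcodes its log2 ratio was -0.67. Between the shallow barcodes of the libraries, 28 of 8758 genes were at least 2-fold higher in sonKD (0.32%) and 45 lower (0.514%), against 17 (0.194%) and 4 (0.0457%) between the deep ones. The counting intervals were wider in the shallow class, with a median width of 0.66 on the log2 scale against 0.23. Values of the shallow and the deep class are given side by side below, and their difference between the classes was not tested, having 1 library per group.

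Nuclear noncoding RNAs differed between the libraries in opposite directions. Neat1 had 447.0 CPM in shallow barcodes of sonKD and 227.8 CPM in those of control, a log2 ratio of 0.97, and 1.36 in deep barcodes. Malat1 stood at -0.44 in shallow and -0.26 in deep barcodes. The pluripotency factors stood at -0.36 for Pou5f1, 0.00 for Sox2 and -0.29 for Nanog in shallow barcodes, and at -0.26, -0.06 and -0.15 in deep ones.

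The p53 list had a median log2 ratio of sonKD over control of 0.26 in shallow barcodes and -0.02 in deep ones. The medians of all genes were -0.06 and -0.11, so the list lay above them in both classes. Btg2 had 181.6 CPM in shallow barcodes of sonKD against 95.9 CPM in those of control, a log2 ratio of 0.92, and 0.28 in deep barcodes. Mdm2 stood at 0.26 in shallow and -0.13 in deep barcodes, Apaf1 at 0.24 and -0.19, and Atf3 of the immediate early list at 0.75 and 0.02. The value depended on which shallow barcodes were taken: over those with more than 20% mitochondrial UMIs the median of the p53 list was -0.02, Mdm2 stood at -0.33 and Apaf1 at -0.21. The shallow barcodes of sonKD were deeper and richer in mitochondrial RNA than those of control, and the part of this in the ratios was not otherwise tested.

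The genes lowest in sonKD shallow barcodes were below 0 in deep barcodes too. Metrn, a secreted neurotrophic factor, stood at -1.79 in shallow and -0.94 in deep barcodes, Coasy, which makes coenzyme A, at -1.56 and -0.82, and Syngr2, a vesicle protein, at -1.56 and -0.79. Pold1, the catalytic subunit of DNA polymerase delta, stood at -1.51 and -0.84, Bud23, a ribosomal RNA methyltransferase, at -1.49 and -0.86, and Idh2, the mitochondrial isocitrate dehydrogenase, at -1.17 and -0.93. Slc50a1, a sugar transporter, stood at -1.32 and -0.44. On the other side, Cbr3, a carbonyl reductase, stood at 1.18 and 0.77 and Tomm7, a subunit of the mitochondrial import pore, at 1.13 and 0.94. Hist1h2ap (2.44 and 2.40), Rpl29 and Rpl36a share 100% of their 3′ ends with other annotated transcripts, and Rpl35 97.6%, so their values are uncertain.

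**Figure D4:**
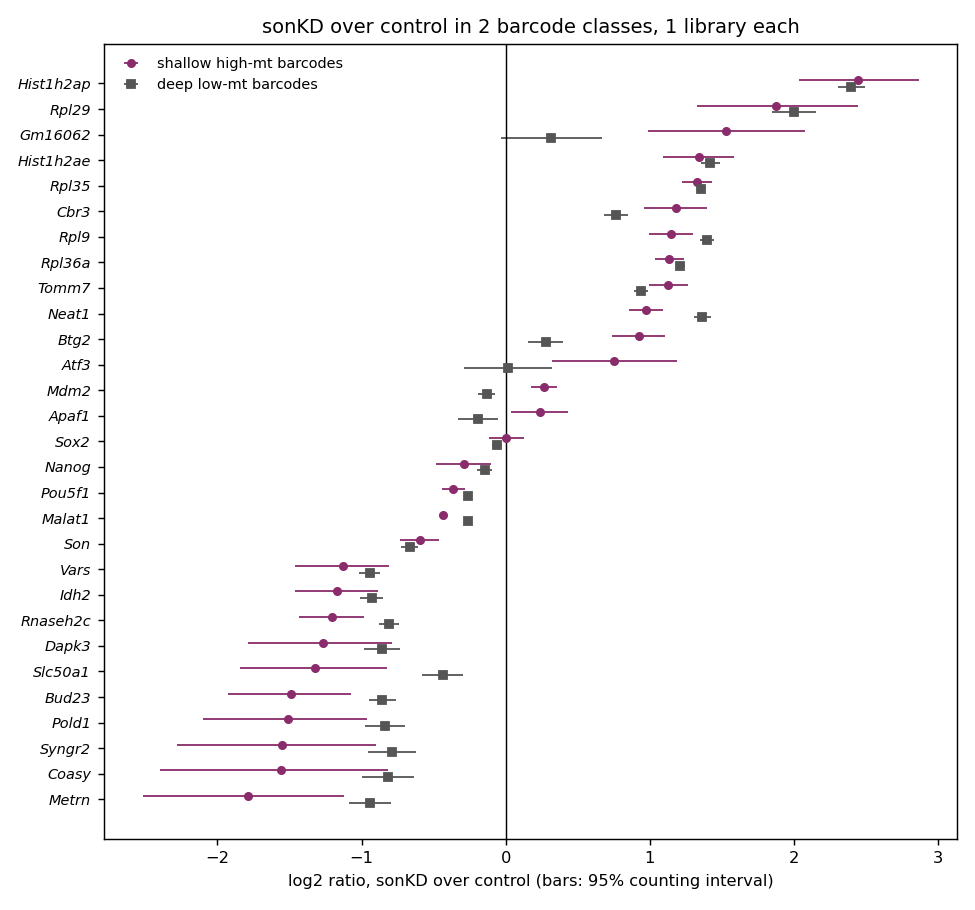
Log2 ratio of sonKD over control (horizontal axis) for genes of the shallow high-mt barcodes (circles) and the same genes in deep low-mt barcodes (squares), with 1 library per group and bars for 95% counting intervals. Son lies at -0.60 and -0.67, Neat1 at 0.97 and 1.36, and Btg2 at 0.92 and 0.28.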

How the data were processed

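The deposited values are whole UMI counts, not normalized, which the authors made with Cell Ranger 7.1.0 on mm10, per the submitters' processing notes. All listed barcodes are in them. The annotation, the strand setting and the handling of intronic reads are not given in the sources used here, and positions are those of GENCODE M21 on GRCm38, which holds 32235 of the 32285 gene identifiers.

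Counts were summed over the barcodes of a class and library, mt- genes were left out, and sums were scaled to CPM. Log2 ratios have no pseudocount, with counts under 3 set to 3. A gene was kept when the shallow and deep sums of both libraries averaged 10 CPM or more, and a ratio past 2-fold was counted. Intervals are exact at 95% (conditional binomial for ratios, Clopper-Pearson for shares) and cover counting error only. No doublet caller was run. With 1 library per group there is no p-value.

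Named genes were Malat1, Son, Neat1, Pou5f1, Sox2 and Nanog, the 15 highest and 15 lowest by the ratio nearer 0 of both libraries, the 10 highest and 10 lowest between the libraries by the interval bound nearer 0, the 10 most abundant, and of each list the 2 members farthest from 0 and up to 4 of the highest level. Some genes that this rule picks are not reported here. A 3′ end was called shared where 31-base words of its last 400 bases occur in transcripts of other genes. The members, lists and rules were chosen with earlier results of these data known. The code was tested on simulated counts. Altogether 14 other settings were tried, of which 2 were added after seeing the data (free RNA taken off, and the 10 CPM minimum in deep barcodes alone). Python 3.11.15, numpy 2.4.6, scipy 1.17.1 and pandas 2.3.3 were used, and edgeR 4.0.16 in R 4.3.3 for TMM factors.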

Additional observations from a re-analysis of the deposited data

Results flagged for a closer look

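Hsp90ab1, a cytosolic chaperone, was the only gene named by the rules whose ratio of shallow over deep barcodes had counting intervals on opposite sides of 0 in the libraries. Its log2 ratio was 0.024 in control (0.01 to 0.04) and -0.027 in sonKD (-0.05 to -0.01). Both values are small, they lie under the median of all genes, and with 1 library per group the difference was not tested.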

How the results depend on the processing

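No paired analysis was possible because each group holds 1 library, so the groups share fewer than 2 replicate numbers. Values below follow the order control, then sonKD. Genes past 2-fold upward (959 and 1379) numbered 523 and 742 with mt- genes kept in the totals, 296 and 460 with TMM factors, 327 and 506 with median-of-ratios factors, 278 and 398 with a 50 CPM minimum, 9570 and 10758 with no filter on low genes, and 1990 and 2269 with free RNA taken off. Genes past 2-fold downward (62 and 86) numbered 218 and 381, 708 and 1006, 569 and 828, 30 and 43, 211 and 209, and 348 and 330 under the same settings. They numbered 112 and 173 with Malat1 and ribosomal genes also left out of the totals, 146 and 137 over shallow barcodes of more than 20% mitochondrial UMIs, and, in sonKD, 143 over those of 1000 to under 2000 UMIs. The 73 genes past 2-fold between the libraries became 164 over barcodes of 1000 to under 2000 UMIs, 141 over those of more than 20% mitochondrial UMIs, 15 at 50 CPM, 6138 with no filter and 118 with free RNA taken off.

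The log2 ratio of Malat1 (2.01 and 1.83) was 1.91 and 1.69 at 1000 to under 2000 UMIs, 1.77 and 1.73 above 20% mitochondrial UMIs, 2.04 and 1.89 against deep barcodes of at least 5000 UMIs, 2.11 and 1.94 against those of at most 5% mitochondrial UMIs, 1.98 in control against deep barcodes without their top 5% by UMIs, 1.77 and 1.52 with mt- genes kept, 1.50 and 1.26 with TMM factors, 1.56 and 1.32 with median-of-ratios factors, 1.91 and 1.71 without Malat1 and ribosomal genes in the totals, 1.84 and 1.55 as a mean of CPM per barcode, and 2.34 and 2.13 with free RNA taken off. The ratio of Son between the libraries stayed within its counting interval under each alternative. Scaling moved the median of all genes by -0.45 and -0.52 with median-of-ratios factors and by 0.22 in both libraries with free RNA taken off. With TMM or median-of-ratios factors the speckle list turned below 0 (-0.19 and -0.22, -0.14 and -0.15), very long genes did so in sonKD (-0.13 and -0.07), and naive pluripotency genes turned above 0 with free RNA taken off (0.04 and 0.14). The immediate early median in control, 0.02, lay below 0 under 10 settings, at -0.49 with TMM factors. Without the filter on low genes the histone and stress response medians in sonKD were 0.01 and 0.11. Asking for 10 CPM in deep barcodes alone gave 642 (7.87%) and 984 (12.1%) genes past 2-fold upward and 71 and 98 downward of 8157. The cause of these shifts was not tested.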
